A study of Mus musculus with 3 samples.

Results

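Interferon-responding epithelial cells of the mouse gallbladder were taken as single cells of the epithelial gate in which Isg15, Ifit1 and Ifit3 together reached 300 CPM. CPM is the count of a gene's unique molecular identifiers (UMIs) scaled to 1000000 UMIs in the cell or group of cells. The epithelial gate asked for at least 300 genes, 3000 UMIs and at most 20% mitochondrial UMIs, for Epcam, Krt8, Krt18 and Krt19 summing to 4000 CPM or more, for 0 UMIs of Ptprc, and for Col1a2 and Col3a1 together below 2000 CPM. There were 876 such cells among 9211 gated epithelial cells, 16241 barcodes over the filters on genes, UMIs and mitochondrial share, and 27700 barcodes in all. The remaining 8335 gated cells are called the other epithelium. Since Isg15, Ifit1 and Ifit3 chose the cells, they are left out of the results, and every ratio of interferon-responding cells over other epithelium describes cells picked by their expression and carries no test.

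The cells came from gallbladders of male C57BL/6 mice in 3 groups: nanoplastics (plastic particles below the micrometre scale) by oral gavage for 3 weeks, nanoplastics for 6 weeks, and vehicle for 6 weeks. Each group was 1 pool of 10 gallbladders, dissociated with trypsin and sequenced as a droplet 3′ library, and the labels used here give no age. The libraries held 72943584, 121349261 and 58172348 UMIs in 5643, 11827 and 10230 barcodes, in the order of their numbers. In the deposited matrix a barcode carries a library number, and nothing in the files or labels ties the numbers to the groups. Libraries 1, 2 and 3 are therefore given side by side as unassigned libraries, exposed and vehicle-treated mice are not compared, and the number of mice behind a library cannot be used as replication.

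Interferons are secreted proteins that alert neighbouring cells to infection or damage. Type I and type III interferons bind receptors on epithelial cells and act through the kinases Jak1 and Tyk2 on a complex with Stat2 and Irf9 that binds interferon-stimulated response elements in DNA, while interferon gamma acts through Jak1 and Jak2 on gamma-activated sites. The induced genes include sensors of viral RNA, enzymes and membrane proteins that restrict viruses, antigen presentation genes and Irf7, which amplifies type I interferon production; in epithelia lining mucosal and biliary surfaces they are a first line of defence.

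Library 2 held 845 of the 876 interferon-responding cells, library 1 held 21 and library 3 held 10. These were 12.9% of the 6551 gated epithelial cells of library 2 (95% exact binomial interval 12.1 to 13.7%), 1.42% of 1475 in library 1 (0.883 to 2.17%) and 0.844% of 1185 in library 3 (0.405 to 1.55%). Intervals here and below cover counting error only, not the difference between mice or pools. The epithelial share in library 2 lay above both others by more than these intervals.

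Cell depth bears on this rule, because at 3000 UMIs a single UMI is worth 333 CPM and already passes. Median depth was 12235 UMIs in the interferon-responding cells of library 2 against 12616.5 UMIs in its other epithelium, and 24377 against 27515.5 UMIs in library 1. In library 3 the interferon-responding cells were shallow, at a median of 6266 UMIs against 14016 UMIs in the other epithelium. The UMIs of the 3 rule genes behind membership had a median of 12 in library 2, 19 in library 1 and 3 in library 3, and 14 cells of library 2 and 3 cells of library 3 rested on fewer than 3. With every cell thinned to 3000 UMIs, the share with at least 1 UMI of the rule genes was 16.8% in library 2, 7.59% in library 1 and 4.73% in library 3. Since 1 UMI at that depth can come from free RNA, the share with at least 2 UMIs was also taken, a limit chosen after the data were seen, and it was 9.71% (9.0 to 10.5%) in library 2, 1.29% (0.777 to 2.0%) in library 1 and 0.422% (0.137 to 0.982%) in library 3. The order of the libraries was the same at each depth.

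Other cells of the same libraries crossed the same threshold in a different pattern. Among cells with Pecam1 or Cdh5, markers of endothelium, the share was 56.5% in library 2, 57.2% in library 1 and 16.7% in library 3. Collagen-expressing cells gave 22.7% in library 2, 19.9% in library 1 and 2.70% in library 3. Cells with Ptprc, the pan-leukocyte marker, gave 15.5% in library 2, 12.1% in library 1 and 2.43% in library 3. In each of these 3 gates the intervals of libraries 1 and 2 overlapped and library 3 lay below both. In the epithelium the interval of library 1 instead overlapped that of library 3 with all UMIs, and also at 3000 UMIs with at least 2 UMIs. With at least 1 UMI at that depth they did not overlap, at 6.29 to 9.07% in library 1 and 3.59 to 6.09% in library 3. Thinned to 3000 UMIs with at least 2 UMIs, the epithelium of library 1 stayed at 1.29%, against 44.7% of its Pecam1 or Cdh5 cells, 12.2% of its collagen cells and 8.48% of its Ptprc cells. At that setting the collagen cells of library 2 stood at 17.4%, just beyond the interval of library 1. No gate was free of such cells, so no cell type gave a level for free RNA alone, and its part in the shares of libraries 1 and 3 was not tested.

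**Figure D1:**
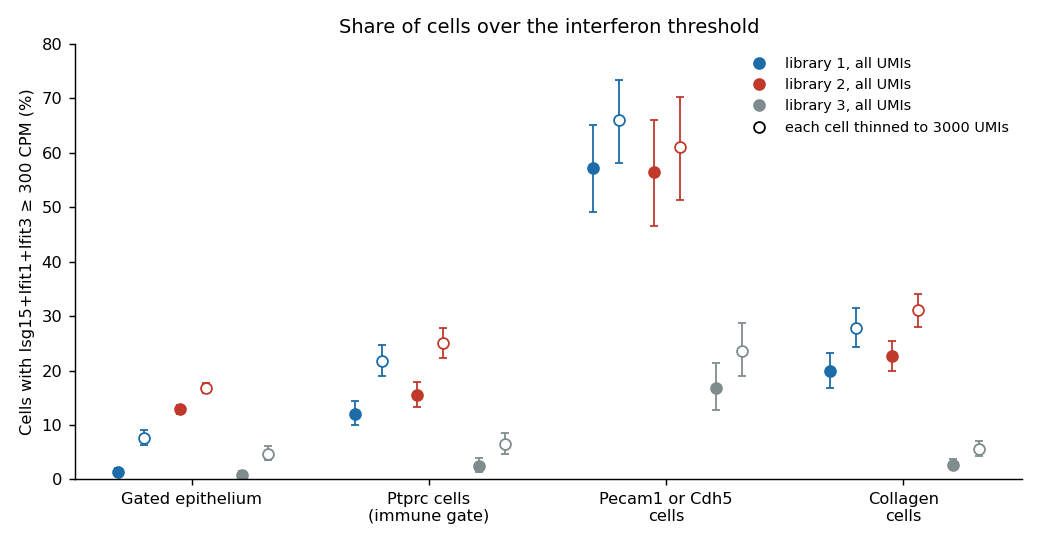
Percentage of cells with Isg15, Ifit1 and Ifit3 together at 300 CPM or more (y axis) in 4 gates (x axis) and libraries 1, 2 and 3 (colours), from all UMIs (filled) and with each cell thinned to 3000 UMIs (open); bars are 95% exact binomial intervals of cell counts. Library 2 epithelium sits at 12.9% against 1.42% and 0.844% in libraries 1 and 3, while the other gates have libraries 1 and 2 close together.

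The cells were epithelial by markers the rule did not use. The summed level of 14 further epithelial genes, among them Cldn4, Cdh1 and Sox9, was 6159 CPM in interferon-responding cells against 6259 CPM in other epithelium of library 2, 6013 against 6826 CPM in library 1 and 5581 against 5969 CPM in library 3. Irf7, the marker of the response that the rule left out, was detected in 92.9% of interferon-responding cells against 29.2% of other epithelium in library 2. In library 3 it averaged 21.6 CPM (4.44 to 63.0, exact Poisson interval) in the 10 cells, against 25.9 CPM in the other epithelium, so Irf7 does not bear the label out there. A single cell gave 81009 of the 139213 UMIs of those 10 cells, and 2 of the 10 had any Irf7.

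Levels of interferon genes outside the rule were compared as a sum. A set of 99 other interferon genes (transcription factors, effectors, ISGylation, ADP-ribosylation and GTPase genes) summed to 11882 CPM (11821 to 11943) in interferon-responding cells against 4432 CPM (4418 to 4446) in other epithelium of library 2, and to 9198 against 4280 CPM in library 1. In single cells of library 2 the sum had a lowest value of 1548, a median of 11944 and a highest of 29990 CPM in interferon-responding cells, against 655, 4267 and 16607 CPM in other epithelium. The 2 ranges overlapped, and the median number of these genes detected in a cell was 40 of 99 against 19.

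At the threshold itself, the 95 cells of library 2 just inside it (300 to under 400 CPM of the rule genes) had 8718 CPM of the 99 genes, against 7416 CPM in the 116 cells just outside (200 to under 300 CPM). Irf7 was 257 CPM in the cells just inside and 180.4 CPM in those just outside. Cells with no rule gene detected, 4504 in library 2, had 4259 CPM of the 99 genes and 23.3 CPM of Irf7, and the 490 cells at 800 CPM or over had 13378 CPM and 470.3 CPM. The cells just outside thus also stood above the cells with no rule gene. In library 1 the 99-gene sum was 7989 CPM in the 6 cells just inside and 7383 CPM in the 18 just outside. It was 8982 CPM in the 9 cells at 400 to under 800 CPM and 11042 CPM in the 6 cells at 800 CPM or over. Irf7 in library 1 was 98.5 CPM just inside and 125 CPM just outside. In the cells at 400 to under 800 CPM it was 161.6 CPM, and at 800 CPM or over 67.2 CPM. In library 3 the sum at the threshold lay the other way, at 4739 CPM (4345 to 5161) in the 5 cells just inside. The 16 cells just outside had 6043 CPM (5633 to 6474). The median cell followed the sum, at 4391 against 5724 CPM. With cells thinned to equal depth, the mean was instead 20 UMIs of the 99 genes just inside and 15.9 just outside. The order at the threshold in library 3 thus depended on the measure. The 4 cells of library 3 at 400 to under 800 CPM had 8129 CPM. Its 1 cell at 800 CPM or over had 8188 CPM.

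**Figure D2:**
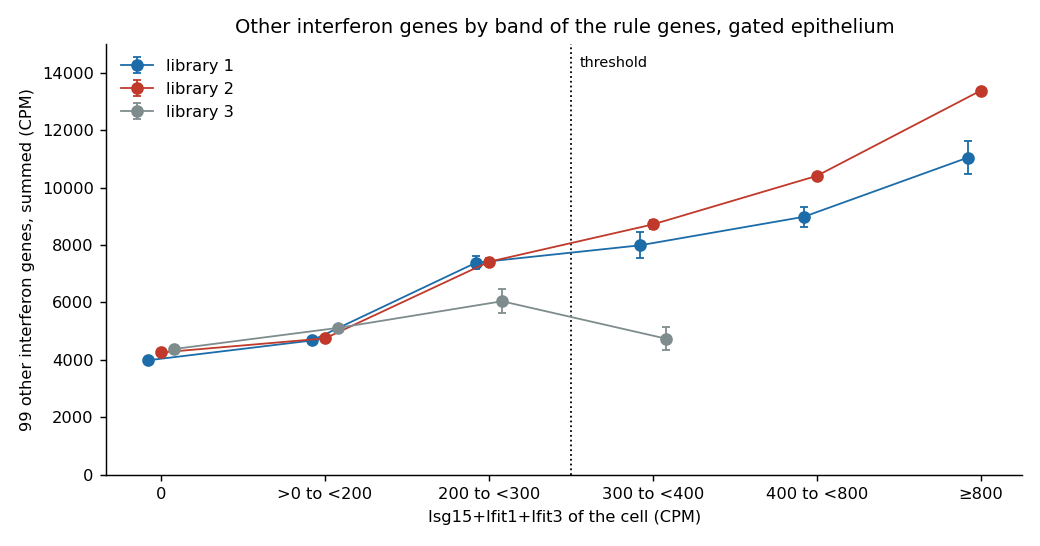
Summed CPM of 99 other interferon genes (y axis) in gated epithelial cells grouped by the CPM of Isg15, Ifit1 and Ifit3 (x axis, 6 bands) for libraries 1, 2 and 3; bars are 95% exact Poisson intervals, bands under 5 cells are not drawn, and the dotted line is the threshold. In library 2 the level climbs from 4259 CPM at 0 to 13378 CPM at 800 CPM and over.

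Across the genome, 9389 genes reached 5 CPM over all gated epithelium and were compared within each library as (interferon-responding CPM + 2) over (other epithelium CPM + 2). Ratios are given on the log2 scale. The 5 CPM level counted the interferon-responding cells too, so a gene could pass through them, which favours genes higher in these cells. Iigp1, for example, passed at 5.78 CPM with 3.32, 3.24 and 4.10 CPM in the other epithelium of libraries 1, 2 and 3. Ifit3b, Rsad2, Oas3, Cmpk2 and Dhx58 were also under 5 CPM in the other epithelium of each library. Irgm2, Herc6, Oas2, Il18bp and Mpeg1 were under it in libraries 1 and 2. Ifit3b is besides a close copy of a rule gene. The counts of higher genes below include all of these. They were not repeated with a filter on the other epithelium alone. Asking for a ratio of 2 or more in each library with at least 20 interferon-responding cells, libraries 1 and 2, left 58 genes higher, 0.618% of those compared, and 5 genes lower by the same rule, 0.0533%. Within library 2 alone, where the cells are many, 82 genes were higher (0.873%) and 11 lower (0.117%). In library 1, where 21 cells were summed, 302 were higher (3.22%) and 401 lower (4.27%). Of the 58 genes, 47 belong to lists of interferon genes, and so do 63 of the 82 and 61 of the 302. Of the lower genes, 0 of 5, 0 of 11 in library 2 and 2 of 401 in library 1 are in these lists. Of 179 listed interferon genes, 123 passed the expression filter, and their median log2 ratio was 1.05 in library 2, 0.96 in library 1 and 0.34 in library 3, beside -0.01, -0.05 and 0.00 for all genes compared. In library 2, 111 of the 123 lay above 0.

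**Figure D3:**
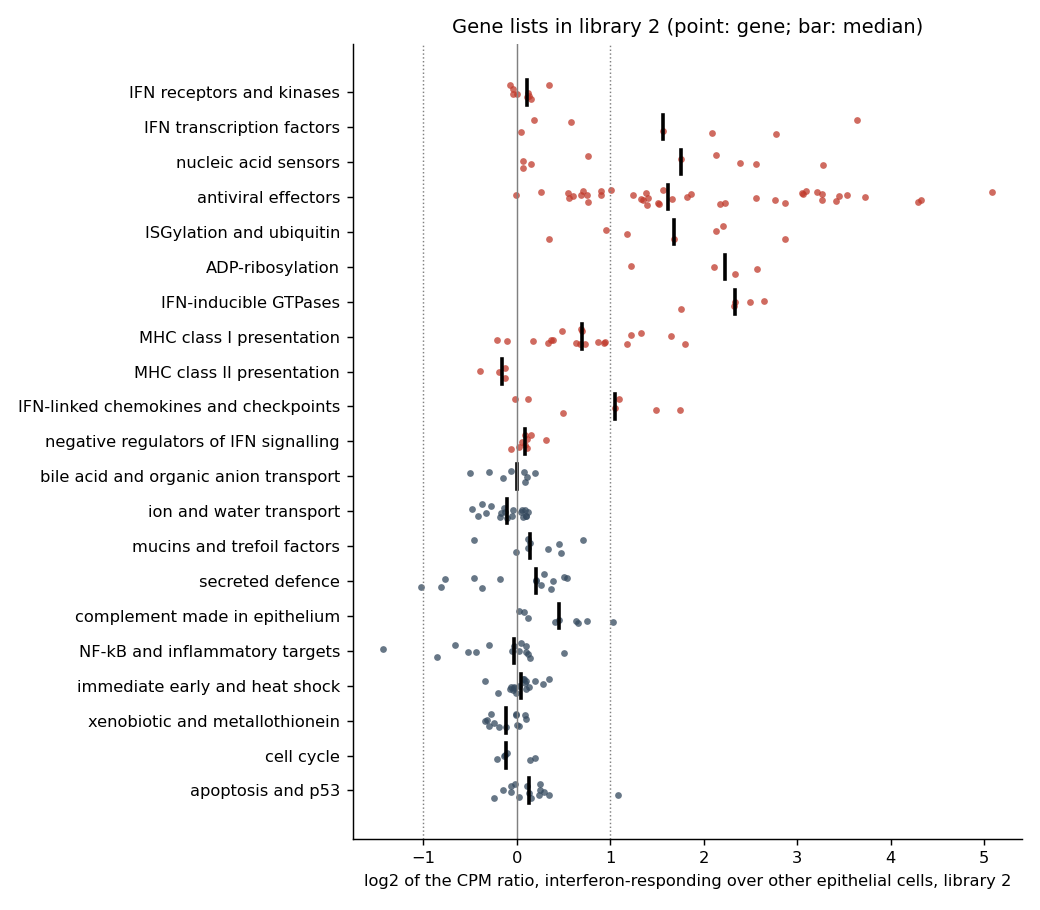
Log2 ratio of CPM in interferon-responding over other epithelial cells of library 2 (x axis) for the genes of each list that passed 5 CPM (y axis; red, interferon lists; dark, epithelial lists); points are genes, black bars medians, dotted lines 2-fold. Medians of transcription factors, sensors, effectors, ISGylation, ADP-ribosylation and GTPases lie between 1.56 and 2.34, and those of receptors and of negative regulators at 0.11 and 0.09.

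The response element that the complex with Stat2 and Irf9 binds was looked for in the DNA around the start of these genes. Searched as GAAANNGAAA on both strands, from 250 bases before to 50 bases after the start, it was present in 22 of the 45 matched promoters of the 58 higher genes (48.9%), in 265 of 7410 matched genes that passed the filter (3.58%) and in 1079 of all 27025 promoters of the table (3.99%). The gamma-activated site TTCNNNGAA, which reads the same on both strands and can overlap the first motif, was present in 9 of the 45 (20.0%), against 8.35% of genes that passed and 9.55% of all promoters. Interferon list genes that passed but were not higher in both libraries held the response element in 10 of 61 (16.4%). Among the 58 higher genes, those in the interferon lists held it in 20 of 37 matched promoters, and those outside the lists in 2 of 8. The 22 and the 20 promoters include that of Ifit3b. A match is only a run of letters, and binding was not measured. The promoters below, from RefSeq on GRCm38.p6 and 5′ to 3′ on the gene's strand, belong to the interferon genes with the highest ratio in their lower library among those with a match, leaving out Ifit3b, a close copy of a rule gene. Capitals mark the response element, in either direction.
Rsad2 (chr12:26456403-26456702, minus strand): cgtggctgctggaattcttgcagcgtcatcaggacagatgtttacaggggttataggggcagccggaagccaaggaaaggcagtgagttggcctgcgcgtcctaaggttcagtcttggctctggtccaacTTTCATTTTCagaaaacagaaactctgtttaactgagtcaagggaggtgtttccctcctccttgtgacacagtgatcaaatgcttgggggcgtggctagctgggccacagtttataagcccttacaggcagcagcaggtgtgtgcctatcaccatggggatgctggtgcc
Ifitm3 (chr7:141010695-141010994, minus strand): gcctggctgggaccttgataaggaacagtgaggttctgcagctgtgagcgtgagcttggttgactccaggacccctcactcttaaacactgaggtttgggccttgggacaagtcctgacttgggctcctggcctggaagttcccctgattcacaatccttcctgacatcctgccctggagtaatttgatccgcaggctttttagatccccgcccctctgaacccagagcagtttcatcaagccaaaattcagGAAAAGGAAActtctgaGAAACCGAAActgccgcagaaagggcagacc
Irgm1 (chr11:48871371-48871670, minus strand): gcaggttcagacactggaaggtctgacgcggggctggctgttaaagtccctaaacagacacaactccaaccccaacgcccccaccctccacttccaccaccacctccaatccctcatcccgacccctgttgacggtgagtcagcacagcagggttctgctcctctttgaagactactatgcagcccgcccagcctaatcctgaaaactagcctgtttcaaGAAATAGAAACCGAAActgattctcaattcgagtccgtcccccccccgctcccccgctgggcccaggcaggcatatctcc
Irgm2 (chr11:58214727-58215026, plus strand): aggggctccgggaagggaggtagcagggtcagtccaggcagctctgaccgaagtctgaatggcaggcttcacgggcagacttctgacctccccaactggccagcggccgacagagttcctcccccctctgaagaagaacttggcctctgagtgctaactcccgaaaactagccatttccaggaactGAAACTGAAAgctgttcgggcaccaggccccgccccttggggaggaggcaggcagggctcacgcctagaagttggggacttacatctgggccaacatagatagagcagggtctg
In Rsad2 the match lay 120 bases before the start, in Irgm2 64 bases before it, and in Irgm1 2 overlapping matches lay 30 and 24 bases before it. In Ifitm3 both matches lay in the first transcribed bases, at positions 3 and 20.

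Messages for the ligands were almost absent from the epithelium. The 876 interferon-responding cells held 0 UMIs of Ifnb1, Ifng, Ifnk, Ifnz and every listed Ifna gene, and 1 UMI each of Ifne, Ifnl2 and Ifnl3. In the 2520 filtered cells with Ptprc, by contrast, 205 UMIs of Ifng lay in 81 cells, 142 of them in library 1, 62 in library 2 and 1 in library 3. Ifnb1 had 12 UMIs in 4 Ptprc cells and 5 UMIs in 1 cell outside the gates. At these counts, levels of the ligand genes in the epithelium could not be detected, which does not show that they were absent.

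Of 9 receptor and kinase genes, 0 were 2-fold higher or lower in library 2, where 0.873% of all genes were higher and 0.117% lower, so the count alone does not set the list apart. The list's median log2 ratio was 0.11 in library 2. Ifnar1 and Ifnar2, the type I interferon receptor, had 14.6 and 18.4 CPM in interferon-responding cells against 14.6 and 16.8 CPM in other epithelium. Ifnlr1 and Il10rb, the type III receptor, had 4.74 and 24 against 4.92 and 21.3 CPM, and the interferon gamma receptor genes Ifngr1 and Ifngr2 had 134 and 74.2 against 141 and 67.7 CPM. Jak1 stood at 108 against 111 CPM, Jak2 at 33.2 against 30.4 CPM and Tyk2 at 7.44 against 5.43 CPM. In library 1, Ifnar2 was 50.3 CPM in interferon-responding cells from 29 UMIs against 16.7 CPM in other epithelium, and Ifngr1 was 83.2 against 156 CPM.

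Transcription factors of the pathway were higher in 4 of 7 in libraries 1 and 2, Irf7, Stat2 and Irf9 among them. Of all genes compared, 0.618% were higher in both, which is the share to set beside this and the lists below. Irf7 (chromosome 7, 141262706 to 141266481, minus strand, GRCm38) averaged 404 CPM (393 to 416) in interferon-responding cells against 30.5 CPM (29.4 to 31.7) in other epithelium of library 2, and 123 CPM (96.1 to 155) against 33.1 CPM in library 1. The other epithelium thus had nearly equal Irf7 in libraries 1 and 2, and the cells over the threshold had more in library 2. Stat2 was 42.1 against 8.35 CPM and Irf9 78.5 against 25.2 CPM in library 2. Irf1, an early target of interferon gamma, had log2 ratios of 0.58 in library 2 and 1.42 in library 1. Irf2 and Irf3, which are not strongly interferon-induced, lay between -0.11 and 0.19 in libraries 1 and 2.

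Cytosolic sensors of nucleic acid were higher in 4 of 9 in libraries 1 and 2, and in 5 of 9 in library 2 alone. Ddx58 and Ifih1, the RNA sensors RIG-I and MDA5, had 44.1 and 95.2 CPM in interferon-responding cells against 8.55 and 26.7 CPM in other epithelium of library 2. Dhx58, their relative LGP2, had 36.6 against 4.53 CPM, and Ddx60 86.1 against 7.07 CPM. Dhx58 passed the filter with under 5 CPM in the other epithelium of each library. Ifi204 had 24.6 against 3.09 CPM in library 2 but missed 2-fold in library 1, at a log2 ratio of 0.96. The adaptors Mavs and Tmem173 (Sting), which pass the sensor signal on, were level, at 9.08 against 8.60 CPM and 7.52 against 6.56 CPM in library 2.

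Antiviral effectors formed the longest list, with 20 of 42 higher in libraries 1 and 2, 31 of 42 in library 2, and a median log2 ratio of 1.61 in library 2 and 0.95 in library 1. These counts include Ifit3b, a close copy of a rule gene. Ifit3b, Rsad2 and Oas3 passed the filter with under 5 CPM in the other epithelium of each library. Ifi27l2a (chromosome 12, 103442167 to 103443680, minus strand), a mitochondrial protein of the Ifi27 family, had the highest level of the 58 higher genes in library 2, at 1024 CPM (1006 to 1042) in interferon-responding cells against 50.3 CPM in other epithelium; library 1 had 499 against 65.1 CPM and library 3 had 144 against 52.9 CPM. Its neighbour Ifi27l2b is a close copy, so reads may mix between them. Rsad2, the radical-SAM enzyme viperin, had 68.9 CPM in interferon-responding cells of library 2 against 4.10 CPM in its other epithelium. Library 1 had 100.5 against 4.43 CPM of it, and library 3 had 50.3 against 3.68 CPM, there from 7 UMIs in 3 cells.

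Xaf1, a pro-apoptotic antagonist of XIAP, had log2 ratios of 3.41 and 3.21 in libraries 2 and 1, at 84.5 against 6.12 CPM in library 2. Ifitm3, which blocks virus entry at endosomes, had 435 against 57.8 CPM in library 2 and 716 against 76.2 CPM in library 1. Its neighbour Ifitm2 was level, at 558 against 561 CPM in library 2, and Cd47 had 405.5 against 337 CPM. Bst2 (tetherin) had 332 against 38.3 CPM in library 2 and 168 against 33.8 CPM in library 1. Ifit3b had 121 against 1.64 CPM in library 2, but shares near-identical sequence with the rule gene Ifit3, so reads may have been split between them.

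Further effectors were named after their values were seen. Ifi44 had 145 against 5.33 CPM in library 2, Rtp4 132 against 10.3 CPM, Oasl2 331 against 32.6 CPM, Oas3 60.3 against 2.71 CPM and Mx1, a dynamin-like GTPase against RNA viruses, 46.9 against 3.70 CPM. In library 1 the same genes had 52.0 against 6.22 CPM, 91.8 against 12 CPM, 198 against 36.3 CPM, 15.6 against 2.54 CPM and 12.1 against 6.37 CPM, so Mx1 alone of these missed 2-fold there. The Oas genes belong to a family of close copies, and their counts may mix. Lgals3bp was higher in library 2 alone, at 381 against 127 CPM, with 139 against 126 CPM in library 1.

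ISGylation attaches the ubiquitin-like Isg15 protein to others, and 4 of 7 genes of that and the ubiquitin list were higher in libraries 1 and 2. The ring-finger ligase gene Rnf213 had 303 against 39.7 CPM in library 2, the E3 ligase gene Herc6 28.4 against 4.55 CPM, Dtx3l 59.8 against 12.1 CPM and Uba7, the E1 enzyme of ISGylation, 18.9 against 7.24 CPM. Herc6 passed the filter with under 5 CPM in the other epithelium of libraries 1 and 2. Rnf114 missed 2-fold in both libraries (54.3 against 27.0 CPM in library 2), and Usp25 stood at 85.4 against 66.5 CPM. Usp18, which removes Isg15 and restrains the type I receptor and was named after its values were seen, was under the 5 CPM filter; it had 29.6 against 1.24 CPM in library 2 and 5.20 against 1.41 CPM, from 3 UMIs in interferon-responding cells, in library 1.

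ADP-ribosyltransferases were higher in 3 of 4 in libraries 1 and 2, and in 4 of 4 in library 2. Parp14 had 122 against 18.8 CPM in library 2 and 109 against 19.4 CPM in library 1, and Parp9, the partner of Dtx3l, 113 against 20.6 CPM in library 2 and 88.4 against 21 CPM in library 1. Parp12 had 45.3 against 8.96 CPM in library 2, with a log2 ratio of 0.94 in library 1, and Parp10 20.6 against 7.71 CPM.

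Interferon-inducible GTPases, which attack the vacuoles of intracellular microbes, were higher in 5 of 5 in both libraries. Here the ratios were larger in library 1. With doublet calls left out, Iigp1 no longer counted as higher in both, and whether through the filter or its ratio was not determined. Both Iigp1 and Irgm2 passed the filter with under 5 CPM in the other epithelium of libraries 1 and 2. Iigp1 had 185 CPM (152 to 224) in interferon-responding cells against 3.32 CPM in other epithelium of library 1, and 27.5 CPM (24.6 to 30.6) against 3.24 CPM in library 2. Gbp2 had 272 CPM (231 to 318) against 11.4 CPM in library 1 and 37.4 CPM against 9.62 CPM in library 2. Of the 21 cells of library 1, 10 had Iigp1 and 12 had Gbp2, and a single cell held 31.8% of the Iigp1 UMIs and 35.7% of the Gbp2 UMIs. Igtp had log2 ratios of 4.10 and 2.32 in libraries 1 and 2, Irgm1 2.88 and 2.65, and Irgm2 2.89 and 2.34. These families contain close copies, so counts may mix between members. For 13 other genes of the list the level was under the filter.

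Of 20 class I antigen presentation genes, 5 were higher in libraries 1 and 2, 5 in library 2 and 11 in library 1. Backgrounds differed, since 0.873% of all genes were higher in library 2 and 3.22% in library 1. The list median was 0.70 in library 2 and 1.01 in library 1. B2m, the constant chain of class I molecules, had 642 CPM (628 to 657) in interferon-responding cells of library 2 against 274 CPM in its other epithelium. Library 1 had 917 against 370.5 CPM of B2m, and library 3 had 675 against 389 CPM. Tap1, the peptide transporter, had 54.9 against 14.3 CPM in library 2, Psmb8, an immunoproteasome subunit, 153 against 66.3 CPM, H2-T23 232 against 72.3 CPM and H2-T22 52.2 against 19.5 CPM. The chaperones Calr and Pdia3 were level, at 319 against 369 CPM and 310 against 333 CPM. Reads of the H2 genes can be shared among copies.

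Of 4 class II genes, 0 were higher in library 2 (0.873% of all genes) and 4 in library 1 (3.22% of all genes). The list medians were -0.16 in library 2 and 1.5 in library 1. Cd74, the invariant chain, had 65.6 against 86.8 CPM in library 2 and 243 against 65.2 CPM in library 1. H2-Ab1 had 24.9 against 27.4 CPM in library 2 and 78.0 against 21.5 CPM in library 1, where 16 of 21 cells had a UMI and 1 cell held 28.9% of them. The difference between libraries was not tested. In library 1, summed endothelial, fibroblast and muscle, and mesothelial and glial markers were also higher in interferon-responding cells, as given below. Their part in the class II values was not tested.

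Chemokines and checkpoint ligands were higher in 2 of 7 in both libraries. Cxcl10, which attracts T cells, had 274 CPM (233 to 320) against 8.95 CPM in library 1 and 27.2 CPM (24.4 to 30.3) against 8.39 CPM in library 2; 9 of 21 cells had it in library 1 and 86 of 845 in library 2. Il18bp, a soluble blocker of interleukin 18, had 11.8 against 4.64 CPM in library 2. It passed the filter with under 5 CPM in the other epithelium of libraries 1 and 2. Lgals9 had 322 against 94.2 CPM in library 2, with a log2 ratio of 0.64 in library 1, and Tnfsf10 (TRAIL) 34.8 against 15.2 CPM, with 0.36 in library 1. Cxcl16 was level at 213 against 216 CPM, Ccl2 had 7.60 against 6.80 CPM, and Il15ra 11 against 7.21 CPM.

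Of 9 negative regulators 0 were 2-fold higher in library 2, which the share of all genes would also give, with a median log2 ratio of 0.09. Usp18, which also restrains the type I receptor, was under the filter and is not among the 9. Its higher level in library 2 is given above. Socs1 and Socs3, feedback inhibitors of Jak kinases, had 15.8 and 73.3 against 12.3 and 67.8 CPM, Cish 41.1 against 36.6 CPM, Ptpn2 41.0 against 42.7 CPM, Pias1 25.8 against 25.3 CPM and Ptpn6 9.73 against 9.28 CPM.

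Detection per cell was compared at equal depth in library 2. With cells thinned to 3000 UMIs, Irf7 had a UMI in 67.0% of interferon-responding cells against 8.68% of other epithelium, Ifi27l2a in 68.3% against 9.59%, Rnf213 in 56.8% against 11.9% and Bst2 in 55.0% against 10.1%. Ifngr1 had a UMI in 33.8% against 34.1% and Ifnar2 in 4.97% against 4.85%.

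**Figure D4:**
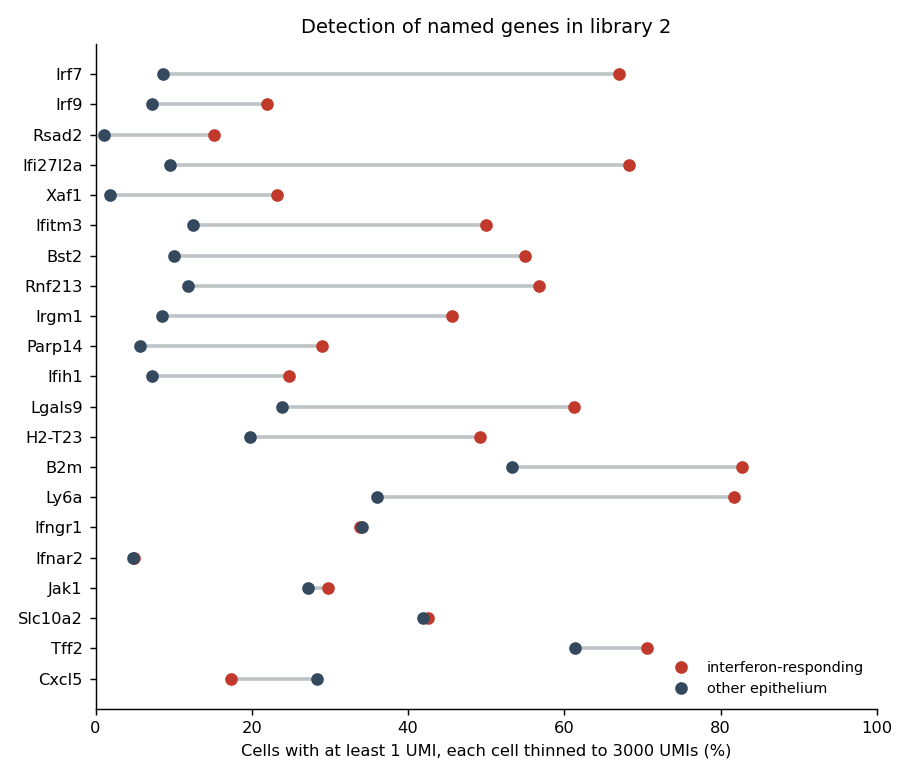
Percentage of library 2 cells with at least 1 UMI of each gene (x axis, cells thinned to 3000 UMIs) for the genes named on the y axis; red, 845 interferon-responding cells; dark, 5706 other epithelial cells. Irf7 stands at 67.0% against 8.68%, while Ifngr1, Ifnar2 and Slc10a2 points nearly coincide.

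Outside the interferon lists, 11 genes were higher in libraries 1 and 2. With cells called as doublets left out, 5 of the 11 no longer counted as higher in both libraries, namely Adamts1, Gm13889, Igfbp3, Igfbp7 and Mpeg1. Neither did Iigp1 and Uba7 of the interferon lists. Such a loss can come from the 5 CPM filter or from the ratio, and which it was for each gene was not determined. Ly6a (Sca-1), a surface protein of many progenitor and activated cells, had 898 CPM (881 to 915) against 205 CPM in library 2 and 464 against 189 CPM in library 1. Mpeg1, a pore-forming protein first described in macrophages, had 23.2 against 3.38 CPM in library 2, and Trim12c, a Trim family gene with close copies, 30.8 against 5.00 CPM. Nampt, an enzyme of NAD synthesis, had 94.6 against 40.4 CPM in library 2 and 93.6 against 41.9 CPM in library 1, and Mitd1 43.0 against 14.8 CPM in library 2.

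Among these 11 were also Adamts1, Igfbp7, Sparcl1 and Igfbp3, genes prominent in stromal and vascular cells. Igfbp7 had 50.5 against 20.0 CPM in library 2 and 308 against 30.0 CPM in library 1, where 10 of 21 cells had a UMI. Igfbp3 in library 1 came from 1 cell. A single cell also held 57.7% of the Adamts1 UMIs, 41.0% of the Igfbp7 UMIs and 79.2% of the Sparcl1 UMIs there. Gm13889 (45.1 against 6.43 CPM in library 1) had 80.8% of its UMIs in 1 cell. Nmi and Plscr2 were outside the 11, just under 2-fold, at log2 ratios of 0.98 and 0.97 in library 2.

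Markers of other cells were followed by whole list. In library 2, 27 immune markers summed to 106 CPM in interferon-responding cells against 109 CPM in other epithelium, 12 endothelial markers to 82.4 against 45.2 CPM, 12 fibroblast and muscle markers to 390.5 against 250.4 CPM and 8 mesothelial and glial markers to 105 against 99.9 CPM. In single cells of library 2 the median of the endothelial sum was 0 in both kinds, with highest cells of 8054 against 4246 CPM, and the median of the fibroblast and muscle sum was 136 against 122 CPM. In library 1 the same sums were 78.0 against 87.5 CPM for immune, 386 against 73.8 CPM for endothelial, 1021 against 284 CPM for fibroblast and muscle, and 485 against 140.2 CPM for mesothelial and glial markers. In library 3 they were 86.2 against 95.1, 431 against 94.8, 1249.9 against 711 and 739.9 against 151 CPM. Of the immune markers, 10 were at 0 in the interferon-responding cells of library 1, among them Cd3e, Trac and Ms4a1, and Ms4a1 and Xcr1 were at 0 in those of library 2. The part of these markers in the ratios was not tested.

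Of the endothelial markers, Pecam1 lay in 2 of the 21 interferon-responding cells of library 1 and in 21 of 845 in library 2, and Cdh5 in 3 and 13. Rgs5, a pericyte marker named after its values were seen, had 31.3 against 2.90 CPM in library 2, from 21 cells. Of the plasmacytoid dendritic markers without Bst2, itself among the interferon genes, the sum was 77.7 against 68.3 CPM in library 2, and of the tuft cell markers 6.54 against 11 CPM. The tuft gene Dclk1 had 2.37 against 3.85 CPM. Doublets called with Scrublet were 7.10% of interferon-responding cells against 4.73% of other epithelium in library 2, 1 of 21 cells against 1.72% in library 1 and 3 of 10 against 2.47% in library 3. Leaving out all cells with any UMI of 12 markers of other cells kept 664 interferon-responding cells in library 2, 12.6% of the remaining epithelium, with 8 in library 1 and 3 in library 3. Library 2 alone then had 20 or more of them, and the median log2 ratio of the interferon genes was 1.11 there, beside 1.05 in library 2 with all cells. In library 2, 75 genes were then higher, beside 82 with all cells (0.873% of the genes compared). Of the 58 genes higher in libraries 1 and 2, 52 were among the 75. Those lost were Adamts1, Gm13889, Igfbp3, Igfbp7, Sparcl1 and Iigp1.

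Divided by Aqp1 over Lcn2, the absorptive water channel against the secreted iron-scavenging defence protein lipocalin 2, interferon-responding cells occurred on both sides. In library 2, 43.4% of interferon-responding cells (367 of 845; 40.1 to 46.9%) had more Aqp1 than Lcn2 UMIs, against 51.5% (50.2 to 52.8%) of other epithelium. Of all gated cells of library 2, 11.1% with Aqp1 over Lcn2 and 14.7% of the others were interferon-responding. In library 1 the share with Aqp1 over Lcn2 was 14 of 21 cells against 39.4% of other epithelium, and in library 3 it was 8 of 10 cells against 67.4%. The direction therefore differed between library 2 and the small numbers of libraries 1 and 3, and the difference was not tested.

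Interferon genes were higher on both sides of that divide in library 2. The 99 other interferon genes summed to 11013 CPM in interferon-responding cells with Aqp1 over Lcn2, against 4145 CPM in other epithelium of the same kind, and to 12625 against 4764 CPM in the remaining cells. Of the 123 listed interferon genes, 61 were 2-fold higher among cells with Aqp1 over Lcn2, where 86 of all genes were (0.916%), and 61 among the remaining cells, where 75 of all genes were (0.799%). Irf7 had log2 ratios of 3.73 and 3.54 and Ifi27l2a 4.31 and 4.30, in cells with Aqp1 over Lcn2 and in the remaining cells. Tnfsf10 had 2.02 and 0.68, and Ifi204 1.24 and 2.51.

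**Figure D5:**
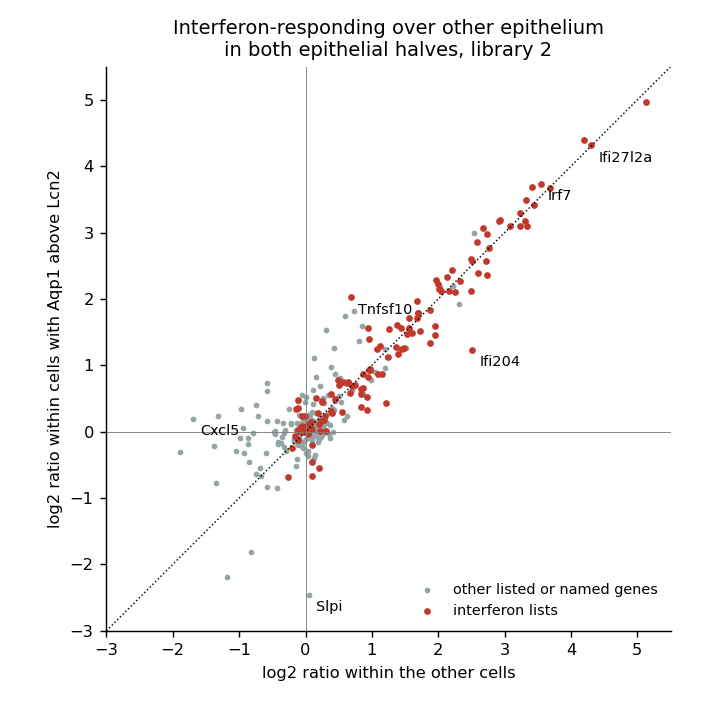
Log2 ratio of CPM in interferon-responding over other epithelial cells of library 2, within cells with Aqp1 over Lcn2 (y axis) and within the remaining cells (x axis), for listed and named genes that passed 5 CPM; red points are interferon lists and the dotted line is equality. Irf7 (3.73 and 3.54) and most interferon genes lie near the line, while Cxcl5 (0.19 and -1.69) lies off it.

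Genes of gallbladder epithelial function are given for library 2, where few genes of any kind passed 2-fold (0.873% higher and 0.117% lower), so counts of 0 do not set a list apart. Of 8 genes of bile acid and organic anion transport, 0 were 2-fold higher or lower, with Slc10a2, the apical bile acid importer, at 196 against 185 CPM, Slco2a1 at 145 against 151 CPM, Abcc3 at 111 against 123 CPM and Abcg2 at 32.8 against 40.8 CPM. Of 19 ion and water transport genes 0 passed either way, with Slc4a2, an anion exchanger, at 38.8 against 36.0 CPM. Xenobiotic and metallothionein genes were likewise within 2-fold, with Mt1 at 3707 against 3732 CPM and Mt2 at 528 against 495 CPM, and so were 6 cell cycle genes, with Pcna at 41.1 against 44.4 CPM, and 18 immediate early and heat shock genes, with Hspa1a at 194 against 153 CPM.

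Of 9 mucin and trefoil genes, 0 were 2-fold higher or lower in library 2, with a median log2 ratio of 0.15, while 6 were lower and 1 higher in library 1, with a median of -2.05. Of 14 secreted defence genes, 1 was lower in library 2 (median 0.21), and 7 were lower and 1 higher in library 1 (median -0.99), where 4.27% of all genes were lower. In library 1, Aqp1 was over Lcn2 in 14 of 21 interferon-responding cells but in 39.4% of other epithelium. Ratios of library 1 were not split by that divide, and the part of this unlike mix in them was not tested. Muc1, a membrane mucin, had 831 against 762 CPM in library 2 and 615 against 626 CPM in library 1. Pigr, which carries IgA across the epithelium, had 1834 against 1502 CPM in library 2. Libraries 1 and 3 had less Pigr in interferon-responding cells, at 1638 against 2024 CPM in library 1, and at 1049 against 1473 CPM in library 3. The trefoil factors Tff2 and Tff3, named after their values were seen, had 1966 against 1201 CPM and 535 against 383 CPM in library 2. In library 1 both lay the other way, at 161 against 958 CPM and 26 against 354 CPM, and so did C4b, a complement component also named after its values were seen, at 109 against 192 CPM in library 1 and 201 against 97.4 CPM in library 2. C2, which is encoded near it, had 65.9 against 38.2 CPM in library 2 and 95.3 against 41.4 CPM in library 1. In library 1, 52.4% of interferon-responding cells had a UMI of C2, against 62.2% of other epithelium. There, 1 cell held 36.4% of the C2 UMIs of the interferon-responding cells. Among 15 apoptosis and p53 genes, Mlkl, the effector of necroptosis, was higher in libraries 1 and 2, at 15.0 against 6.03 CPM in library 2 and 15.6 against 6.73 CPM, from 9 UMIs, in library 1. Cdkn1a had 383 against 350 CPM, and Bax 88.0 against 105 CPM, in library 2.

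The 5 genes lower in libraries 1 and 2 were Cxcl5, Aqp5, Fabp5, Lbhd2 and Reg3b. For these too, the part of the unlike mix of cells with Aqp1 over Lcn2 in the library 1 ratios was not tested. Cxcl5 (chromosome 5, 90759360 to 90761624, plus strand), a neutrophil attractant, had 156 CPM (149 to 163) in interferon-responding cells against 423 CPM (419 to 428) in other epithelium of library 2, 88.4 against 418 CPM in library 1 and 0 UMIs against 64.8 CPM in library 3. The difference in library 2 lay in the cells without Aqp1 over Lcn2, where Cxcl5 had 276 against 896 CPM, while cells with Aqp1 over Lcn2 had 15.6 against 13.4 CPM. Its relative Cxcl1 had 8.34 against 16.7 CPM in library 2, with log2 ratios of 0.23 and -1.32 on the 2 sides. Aqp5, a water channel, had 12.2 against 43.9 CPM in library 2 and 17.3 against 39.5 CPM in library 1, and Fabp5, a fatty acid binding protein, 26.2 against 58.6 CPM in library 2 and 12.1 against 63.8 CPM in library 1. Reg3b, an antibacterial lectin, had 1.88 against 5.88 CPM in library 2, from 5 cells, and 0 UMIs against 10.8 CPM in library 1. In library 3 the order was the other way for Fabp5, at 43.1 against 26.2 CPM from 6 UMIs, and for Reg3b, at 28.7 against 6.03 CPM from 4 UMIs in 1 cell.

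Among genes lower in library 2 alone, some had much of their UMIs in the other epithelium in 1 cell, and these were named after their values were seen. Igkc had 37.7 CPM in interferon-responding cells against 181 CPM in other epithelium, but 1 cell held 50% of the UMIs of the other epithelium, and 40.5% against 38.1% of cells had a UMI. Ghrl, the ghrelin gene, had 0.98 against 66.3 CPM, with 98.7% of the UMIs of the other epithelium in 1 cell. No barcode sequence was shared between libraries among the interferon-responding cells, against 4 sequences in the gated epithelium and 54 among all barcodes.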

How the data were processed

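Single-cell 3′ libraries of dissociated gallbladders, 1 pool per group, were deposited as 1 matrix of raw UMI counts per gene and barcode, which the authors made with Cell Ranger 6.1.1 on GRCm38 (mm10) per the file headers and the submitters' processing notes; no normalization was applied. Library numbers 1 to 3 are not mapped to samples, so all samples stayed unassigned in comparisons. Counts were summed over interferon-responding cells and over other gated epithelium of each library and scaled to CPM. Ratios used an offset of 2 CPM, genes reaching 5 CPM over the gated epithelium, and libraries with at least 20 interferon-responding cells. Called means 2-fold or more in each of these libraries. No test was run: cells of 1 library are not replicates. Intervals are exact binomial or Poisson at 95% and cover counting error only. Thinning drew 3000 UMIs per cell without replacement. Doublets were called per library with Scrublet (score 0.25, expected rate 6%) and were kept.

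Named genes were Irf7, the ligands and receptors, the 5 highest and 2 lowest of each interferon list, the 2 highest and 2 lowest of each epithelial list, the 12 highest and 12 lowest outside the lists, and the leading marker of each other cell type; others are marked as named after their values were seen. The interferon-responding cells and the gene lists were chosen with earlier results of these data known. Of 31053 gene IDs, 30934 matched the annotation used for positions. Sums and ratios were computed with pandas 2.3.3 and numpy 2.4.6 in Python 3.11.15, intervals with scipy 1.17.1, doublet calls with scanpy 1.11.5 and plots with matplotlib 3.10.9. The ratio calculation was tested on simulated data. Alternatives changed the threshold, the gates, the offset, the filter, the depth and the libraries used. Some genes are not reported here.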

Additional observations from a re-analysis of the deposited data

How the results depend on the processing

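Over 20 settings, 53 of 76 values stayed close to the main value, and the interferon median stayed above 0 in each setting that gave one. The share of the gated epithelium, 9.51% in the main setting, was 6.76% at a 600 CPM threshold, 8.78% with at least 2 rule genes detected, 10.3% without cells holding other markers, 13.8% with membership from thinned cells and 7.17% with at least 2 UMIs in thinned cells, the last chosen after seeing the data. Without library 1 it was 11.1%, without library 2 1.17% and without library 3 10.8%. The share with Aqp1 over Lcn2, 44.4%, beside 51.6% in other epithelium, was 71.0% without library 2, beside 51.9%, so its order turned round there; it was 43.9% without library 1, beside 54.2%, and 44.0% without library 3, beside 49.1%. Genes higher, 58, numbered 26 with a 20 CPM filter, 100 with no filter, 82 without library 1 and 349 without library 2. Library 3, with under 20 interferon-responding cells, took no part in the ratios. Leaving it out could act only through the filter, and the 58 genes stayed the same. Genes lower, 5, numbered 21 at 600 CPM, 10 at a 10% mitochondrial limit, 10 without cells holding other markers, 14 in cells with Aqp1 over Lcn2 only, 13 in the remaining cells only, 1 with an offset of 10 CPM, 3 with a 20 CPM filter and 12 in thinned counts. They numbered 11 without library 1 and 435 without library 2. The interferon median log2 ratio, 1.04, was 0.75 with a 20 CPM filter, 0.91 without library 2 and 1.05 without library 1. Leaving out library 3 could again act only through the filter. Settings at 600 CPM, 10% mitochondrial share, without other markers, without library 1 and within 1 side of the Aqp1 divide left library 2 alone with 20 or more interferon-responding cells, and without library 2 the counts rest on the 21 cells of library 1; other causes were not tested. No paired analysis was possible because each group is 1 library and the library numbers are not mapped to groups. Depth limits library 3, with 10 interferon-responding cells, and genes with few UMIs in the 21 cells of library 1.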
